A study of Mus musculus with 20 samples.

Results

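Heat shock proteins and the J-domain co-chaperones that work with them were examined in the intervertebral discs of ank and wild-type (WT) mice. The members were all probe sets whose only gene symbol begins with Dnaja, Dnajb, Dnajc, Hspa, Hspb, Hsph, Hsp90 or Bag and a digit, together with Hspd1, Hspe1 and Cryab; Hspg2 and Hspbap1, whose names only resemble these, were left out. This gave 75 genes, each with 1 probe set, of the 19505 genes with a name on the array. By class there were 13 HSP70 genes, 2 HSP90 genes, 3, 12 and 28 J-domain genes of types A, B and C, 9 small heat shock genes, the chaperonin pair Hspd1 and Hspe1, and 6 BAG genes. Hspa8, Dnaja1 and Hsp90ab1, constitutive members of the same families, were not analysed here.

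The ank/ank mice carry the progressive ankylosis allele on both copies of Ank, in the C3FeB6 A/Aw-J-Ank ank/J stock, and their WT littermates came from the same crosses of heterozygous parents. ANK raises pyrophosphate outside the cell, an inhibitor of mineral growth, and the allele is carried by every cell of the animal, so no tissue is targeted. Ank itself was not analysed here. The nucleus pulposus (NP, the gel-like centre of the disc) and the annulus fibrosus (AF, the fibrous ring around it) were dissected from 5 ank and 5 WT mice aged 13 weeks, 2 males and 3 females of each genotype, and the discs of 1 animal were pooled by tissue. The labels name caudal as well as lumbar discs as the source, whereas the methods of the study name caudal discs alone, so the level of the spine behind these values is not settled. Each animal gave 1 NP and 1 AF array, 20 arrays in all, and animals are called by the number in their label (WT 32, 33, 53, 55 and 59; ank 31, 34, 39, 41 and 48).

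HSP70 proteins bind unfolded stretches of other proteins and release them in a cycle driven by ATP. J-domain proteins deliver the substrates and start ATP hydrolysis, BAG proteins help to release the nucleotide, HSP90 finishes the folding of kinases and receptors, and small heat shock proteins hold unfolded proteins without using ATP. Many of these genes are switched on by heat shock factors, which bind repeats of the letters GAA and TTC in alternating direction, whereas others serve the secretory pathway or the mitochondria and are used by every cell. The cells of the NP come from the notochord and live in a poorly supplied, osmotically stressed core.

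Promoter stretches are shown for some of the members described below whose promoters carry such repeats, to let a reader see the letters. The 250 bases before and 50 bases after each start site (RefSeq, GRCm38.p6) could be matched for 61 of the 75 members. In the lines below the capitals mark the matched repeats, and each stretch is written 5′ to 3′ on the strand of its gene.
Hspd1, chr1:55088053-55088082, minus strand: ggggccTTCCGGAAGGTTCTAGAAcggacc
Hspe1, chr1:55088053-55088082, plus strand: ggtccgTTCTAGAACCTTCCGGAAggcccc
Dnajb6, chr5:29735846-29735870, plus strand: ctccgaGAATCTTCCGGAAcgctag
Dnajb4, chr3:152193846-152193865, minus strand: tcgctgTTCTAGAAagtaca
Hspb1, chr5:135887796-135887835, plus strand: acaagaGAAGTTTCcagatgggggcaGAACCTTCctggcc
Hspa1a, chr17:34972247-34972266, minus strand: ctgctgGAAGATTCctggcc
Dnaja4, chr9:54699463-54699520, plus strand: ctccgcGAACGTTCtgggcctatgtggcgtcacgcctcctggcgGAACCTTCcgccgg

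A run of 3 units (the pattern GAANNTTC with NNGAA added at its end, or on the other strand TTCNNGAA with NNTTC added) stood in the windows of 4 of the 61 members (6.56%), namely Dnajb6, Hspd1, Hspe1 and Hsph1, against 0.669% of the 26742 genes with a window. Hspd1 and Hspe1, the chamber and the lid of the mitochondrial folding machine, read away from each other and share the same stretch. A run of 2 units (GAANNTTC or TTCNNGAA, each the same pattern on both strands and each contained in the longer one) stood in 16 members (26.2%) against 17.0% of all genes. Among the heat-inducible members listed for this work the short run was found in 8 of the 10 with a window (80.0%), and among the other members in 15.7%. The windows of Hspa1a and Hspa1b held the same base at 296 of 300 positions. These 2 genes encode nearly the same protein, so their signals may come in part from each other's RNA and are given as uncertain. Their transcripts and array probes were not compared. Among the members described below, Hspa12a, Hspa2, Hspa4, Hspa5, Hsp90b1, Hspb7, Dnajb1, Dnajb9, Dnajb12, Dnajc8 and Dnajc15 had a window without either run. Cryab and Hsp90aa1 were among those without a window. A match is a description of letters and was not tested as a binding site.

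All values are log2 signals as deposited, and a signal is set only against the same probe set in other arrays. Background was set in each array at the 95th percentile of 1426 receptor genes of smell and pheromones, which disc cells should not use, and a gene above it is called above background. That level lay between 6.80 and 8.28 in the NP and between 6.72 and 8.41 in the AF. The separation of control probe sets (control AUC) ran from 0.71 to 0.789 in the NP and from 0.59 to 0.763 in the AF. The AF array of ank 31 had the lowest value, and that of WT 33 the highest. NP marker genes averaged 15.2 to 15.7 in the NP arrays and 8.59 to 14.5 in the AF arrays. Tendon and annulus genes averaged 7.56 to 9.41 and 9.49 to 12.8. The mean of each list, on values as deposited, was thus higher in its own tissue, but single genes differed. In WT mice the annulus gene Comp read 5.61 to 8.58 in the NP and 12.21 to 15.49 in the AF. Fmod, of the same list, read 18.95 to 19.48 and 16.32 to 18.74. Car3, of the NP list, read 19.55 to 19.93 over all 20 arrays. The spread of the NP list in the AF was wide. Krt19, a keratin of notochordal cells, read 17.05 to 18.08 in the NP and from 4.24 (WT 33) to 16.20 (ank 48) in the AF. A bulk sample cannot tell fewer cells of a type from less RNA per cell.

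Of the 75 members, 42 (56.0%) were above background in at least 5 of the 10 NP arrays and 23 (30.7%) in at least 5 of the 10 AF arrays, and these were tested. All 23 were among the 42. For all genes the shares were 32.5% and 20.9%. Both HSP90 genes were above background in all 20 arrays, as was Hspa5, the HSP70 of the endoplasmic reticulum, and Hspa4, an exchange factor for HSP70. The chaperonin pair passed in the NP and not in the AF. The 21 members that were above background in no array included the testis genes Dnajb3, Dnajb8 and Hspa1l, the small heat shock genes Hspb3 and Hspb9, and 9 of the 28 type C genes.

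In the NP, none of the 42 members differed between ank and WT after adjustment over all 6340 genes tested by limma. No gene at all did so (0.0% called), and 269 genes (4.24%) had an unadjusted p under 0.05. At the cut-offs given in the labels (a change of 1.75-fold or more with p under 0.05 before adjustment) 1 member was lower in ank and 0 were higher, beside 2.81% and 0.505% of all genes. The median ank minus WT difference was -0.09 over the members and -0.11 over all genes tested, and in 0 of the 42 members the 2 genotypes failed to overlap (0.757% of all genes).

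The member past the cut-offs was Hspa12a, a distant HSP70 relative that is enriched in neurons and is not induced by heat. Its NP signals were 9.72, 9.12, 10.38, 8.80 and 8.56 in WT 32, 33, 53, 55 and 59 and 8.50, 7.63, 9.21, 8.33 and 7.52 in ank 31, 34, 39, 41 and 48. The groups overlap, with ank 39 above 3 of the WT arrays, and only 3 of the 5 ank arrays were above background. The difference was -1.08 (SE 0.42), with an unadjusted p of 0.0214 and an adjusted p of 0.973. Within the arrays with high and with low poly-A spike-in signal, a technical split that cuts across the genotypes, it was -1.29 and -0.75. Without WT 32, WT 53, ank 34 or ank 48 its unadjusted p was 0.0505, 0.0655, 0.0542 and 0.056.

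The next members by unadjusted p in the NP were Dnajb12, Dnajc8 and Dnajc15. Dnajb12, a J-domain protein of the endoplasmic reticulum membrane, read 8.33, 7.80, 8.43, 7.76 and 7.55 in WT and 7.41, 6.44, 7.99, 7.69 and 6.97 in ank (difference -0.68, SE 0.34). Dnajc8, a splicing-associated J-domain protein, read 11.27, 11.00, 11.31, 10.90 and 10.65 in WT and 10.30, 10.80, 10.35, 10.72 and 10.54 in ank (difference -0.48, SE 0.27). Dnajc15, which sits at the import channel of the mitochondrial inner membrane, read 8.15, 7.73, 7.31, 6.68 and 8.14 in WT and 8.03, 8.64, 8.01, 7.63 and 8.40 in ank (difference 0.54, SE 0.34). In each of the 3 the groups overlap, and the adjusted p was 0.973.

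By class, the NP differences were spread around 0. Of the 13 type C J-domain genes tested, 10 were nominally lower in ank, with differences from -0.48 to 0.54 (median -0.19). Of the 10 HSP70 genes 6 were nominally higher, from -1.08 to 0.74 (median 0.18). Beside these, 3941 of all 6340 genes tested were nominally lower in ank and 2399 higher. The 7 genes of the endoplasmic reticulum had a median of -0.20 and the 8 mitochondrial genes one of 0.06. The heat-inducible genes had a median of 0.21 over the 11 tested. None of these medians stands for a called gene.

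**Figure D1:**
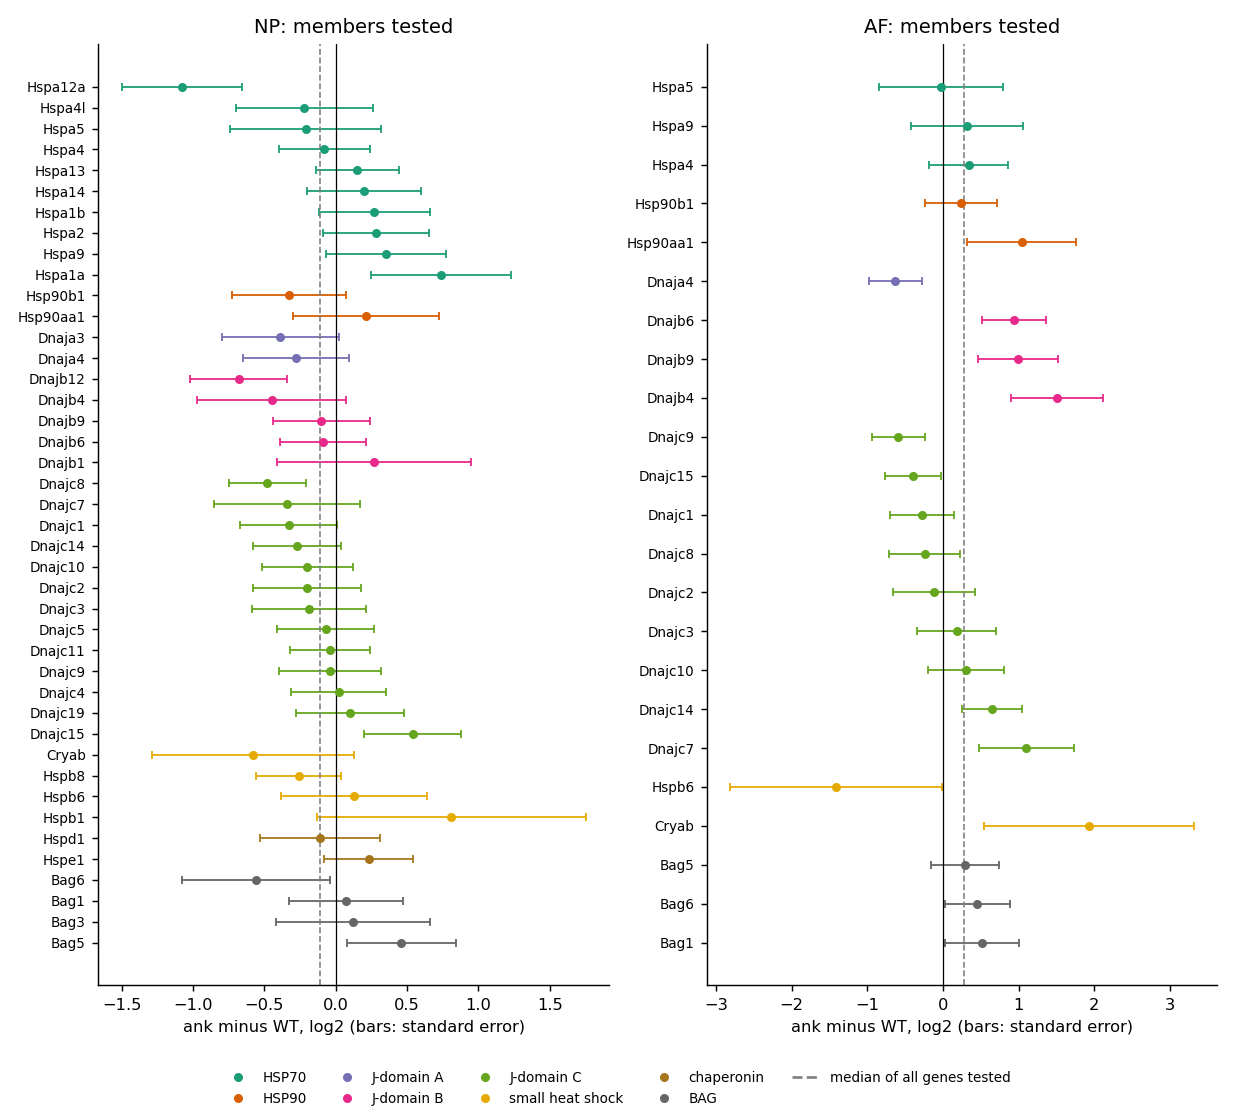
The ank minus WT difference (log2, x axis) of each member tested, in the NP (42 members, left) and the AF (23 members, right), coloured by class, with the standard error as a bar; the dashed line is the median of all genes tested (-0.11 and 0.28). Most bars reach 0 or the dashed line, with Hspa12a at the low end in the NP and Cryab and Dnajb4 at the high end in the AF.

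In the AF, none of the 23 members differed between ank and WT after adjustment over 4078 genes, where again no gene was called by limma (0.0%) and 154 (3.78%) had an unadjusted p under 0.05. At the labels' cut-offs 2 members were higher in ank and 0 were lower, beside 3.56% and 0.147% of all genes. The median difference was 0.30 over the members and 0.28 over all genes, so the members stood where the AF arrays as a whole stood. Quantile normalization lowered the median of all genes to 0.05 and that of the members to -0.03, and then 0 members passed the cut-offs.

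Both members past the cut-offs were J-domain proteins of type B. Dnajb4, a cytosolic partner of HSP70 that is induced by heat, read 8.27, 8.16, 8.36, 9.48 and 10.18 in WT and 9.06, 9.97, 9.88, 12.16 and 10.94 in ank, with ank 41 the highest and the groups overlapping. The difference was 1.51 (SE 0.61), the unadjusted p 0.0293 and the adjusted p 0.947, and quantile normalization gave 1.07 with an unadjusted p of 0.0639. Dnajb6, a strong suppressor of protein aggregation, read 10.95, 10.83, 9.64, 11.03 and 10.10 in WT and 10.88, 11.39, 10.89, 12.07 and 12.04 in ank. Its difference was 0.94 (SE 0.42), the unadjusted p 0.043 and the adjusted p 0.947, and it was 0.49 after quantile normalization.

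Which members passed the cut-offs in the AF depended on single arrays. Without WT 53, ank 41 or ank 48 there were 0. Without ank 31 there were 7 (Bag1, Cryab, Dnajb4, Dnajb6, Dnajb9, Dnajc7 and Hsp90aa1, all higher in ank), while the count over all 4078 genes moved from 145 to 603 higher, and without WT 33 there were 3 (Dnajb6, Dnajb9 and Dnajc7). Without ank 34 there was 1, and without WT 59 there was 1 higher and 1 lower. Leaving out WT 33 and ank 31 together, a choice made after the arrays were seen, also gave 7, with 992 of all genes higher. Within the 4 arrays with high spike-in signal the median of the members was -0.52, beside -0.25 for all genes, and within the 6 with low signal 0.91, beside 0.67. Dnajb4 was 1.30 and 1.66 in these sets, and Dnajb6 was 0.25 and 1.41.

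Next by unadjusted p in the AF came Dnajb9 and Dnaja4. Dnajb9, an endoplasmic reticulum protein that restrains the unfolded protein sensor IRE1, read 7.82, 9.19, 6.58, 8.46 and 8.83 in WT and 8.05, 9.43, 9.23, 9.87 and 9.25 in ank (difference 0.99, SE 0.53, adjusted p 0.947). Dnaja4, a cytosolic J-domain protein, read 8.34, 8.85, 8.40, 8.75 and 7.52 in WT and 7.69, 7.73, 8.20, 7.42 and 7.65 in ank (difference -0.63, SE 0.35, adjusted p 0.947). In Dnaja4 the lowest WT array, WT 59, lay within the range of the ank arrays, and the other 4 WT arrays lay above all of them.

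The size of the ank effect was compared between the tissues on jointly normalized values. The fit did not pair the NP and AF arrays of a mouse, so its SE and p-values leave that pairing out. Of the 23 members tested in both tissues 0 passed after adjustment, as did 0 of the 3903 genes by limma (0.0%; 117, or 3.0%, with an unadjusted p under 0.05). Dnajc15 had the smallest unadjusted p among the members, with an AF minus NP difference of the ank effect of -1.20 (SE 0.529, unadjusted p 0.0337). For Dnajb4 it was 1.43 (SE 0.75).

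The heat-inducible members set 1 mouse apart in both tissues, a pattern chosen after its values were seen. In the NP the array of ank 41 was the highest of the 10 for 8 of the 12 heat-inducible genes in the table, and in the AF that of ank 41 was again the highest for 8. For 6 of them (Hspa1b, Hspb1, Cryab, Dnajb1, Hsp90aa1 and Bag3) it was the highest in both. As background, ank 41 was the highest array for 18.8% of all genes tested in the NP, for 23.2% of those tested in the AF, and in both tissues for 9.2% of the 3903 genes tested in both. These shares are over tested genes, whereas the 12 include genes that were not tested. Among the heat-inducible genes tested ank 41 was the highest for 8 of 11 in the NP and for 3 of 3 in the AF. Single WT arrays were as often the highest, WT 53 for 20.6% of genes in the NP and WT 33 for 23.2% in the AF. Its control AUC was 0.785 in the NP and 0.749 in the AF, and the second highest of the 10 in each, and its part in the pattern was not tested.

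Hspb1 (HSP27), a small heat shock protein of stressed cells, read 10.96, 8.48, 10.88, 9.68 and 11.87 in the NP of WT mice and 9.46, 9.22, 10.46, 14.90 and 11.86 in ank 31, 34, 39, 41 and 48. In the AF it read 7.42, 6.65, 7.44, 7.44 and 8.56 in WT and 7.03, 8.10, 6.54, 12.93 and 11.00 in ank, so ank 41 and ank 48 stood above all other AF arrays. It was not tested in the AF, where it was above background in 4 of 10 arrays. In the NP its difference was 0.81 (SE 0.94, adjusted p 0.973) with ank 41 and -0.12 without it.

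Cryab (alpha-B crystallin), another small heat shock protein, had its highest NP signal in ank 41 while the rest of the ank arrays were low. It read 15.76, 14.61, 14.87, 15.09 and 16.20 in WT and 13.56, 14.64, 13.76, 17.97 and 13.68 in ank, a difference of -0.58 (SE 0.71, adjusted p 0.973). Without ank 41 the difference was -1.39, with an unadjusted p of 0.00316 and no gene called after adjustment. In the AF it read 8.71, 8.95, 8.41, 9.06 and 12.37 in WT and 7.43, 11.58, 8.94, 15.70 and 13.51 in ank (difference 1.93, SE 1.39, adjusted p 0.947).

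Dnajb1 (HSP40), the main heat-induced partner of HSP70, read 9.37, 7.96, 9.44, 8.16 and 8.83 in the NP of WT mice and 8.20, 6.43, 9.87, 11.05 and 9.59 in that of ank mice. In the AF it read 7.42, 7.24, 4.33, 6.77 and 7.17 in WT and 7.22, 7.32, 8.26, 10.80 and 9.58 in ank, with 3 ank arrays above every WT array. It was above background in 4 AF arrays and so was not tested there. Without a filter, Dnajb1 and Hspa1a were past the labels' cut-offs in the AF, higher in ank, beside 344 of all 19505 genes. After adjustment 0 genes were called in that fit, and most AF arrays were below background for both members. In the NP the difference of Dnajb1 was 0.27 (SE 0.68) with ank 41 and -0.23 without it.

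Hsp90aa1, the inducible cytosolic HSP90, read 15.58, 13.34, 14.85, 13.53 and 14.44 in the NP of WT mice and 14.33, 13.73, 15.19, 15.89 and 13.64 in that of ank mice (difference 0.21, SE 0.51). In the AF it read 12.29, 12.21, 10.91, 10.83 and 11.28 in WT and 10.66, 12.70, 11.14, 14.67 and 13.57 in ank (difference 1.04, SE 0.72, adjusted p 0.947). Without ank 41 the AF difference was 0.51.

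Hspa1a, the stress-induced HSP70, read 8.99, 7.86, 8.63, 7.58 and 9.23 in the NP of WT mice and 8.59, 7.87, 10.14, 10.35 and 9.04 in that of ank mice (difference 0.74, SE 0.49, adjusted p 0.973). In the AF it was above background in 0 of 5 WT arrays and in 2 of 5 ank arrays, those of ank 41 (8.30) and ank 48 (8.45), with WT between 6.19 and 7.46. Hspa1b, its near copy, lay between 7.21 and 8.22 in the NP of WT mice and read 7.19, 7.39, 8.80, 8.96 and 8.11 in ank (difference 0.27, SE 0.39). For both genes the NP arrays of ank 39 and ank 41 were the highest, and the groups overlap.

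Bag3, which links HSP70 and small heat shock proteins to autophagy, read 8.62, 6.44, 8.88, 7.84 and 8.08 in the NP of WT mice and 7.91, 6.69, 8.97, 9.32 and 7.56 in that of ank mice (difference 0.12, SE 0.54). The chaperonin pair showed less of this pattern. Hspd1 read 9.05, 8.23, 9.37, 7.32 and 9.79 in the NP of WT mice and 8.25, 8.63, 8.95, 8.46 and 8.93 in that of ank mice (difference -0.11, SE 0.42). Hspe1 read 7.58, 7.63, 7.51, 8.26 and 8.29 in WT and 7.73, 7.84, 7.87, 8.82 and 8.15 in ank (difference 0.23, SE 0.31). Hspd1 was highest in WT 59 in the NP and in WT 33 in the AF. Hspa5 read 16.55, 15.16, 15.62, 14.66 and 15.16 in the NP of WT mice and 15.79, 14.57, 16.42, 15.88 and 13.44 in that of ank mice (difference -0.21, SE 0.53). In the AF it read 16.26, 17.40, 11.98, 14.85 and 15.10 in WT and 14.91, 14.32, 15.27, 15.82 and 15.12 in ank (difference -0.03, SE 0.82), with the highest and the lowest array both WT. Hsph1, an exchange factor for HSP70, was above background in 4 NP arrays and 1 AF array, lay between 5.53 and 7.61 in all 20, and was not tested.

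Immediate early genes, which respond within minutes to handling and injury, also varied between mice. Their mean signal over 6 genes was 15.3 in the NP of ank 39 and 13.0 in that of ank 41, against 7.63 to 10.5 in the other 8 NP arrays, and 12.8 and 12.4 in the AF of these 2 mice, against 7.30 to 11.1 in the other 8. Over the 12 heat-inducible genes, the mean deviation from each gene's median was 1.35 in the NP of ank 41 and 0.41 in that of ank 39, and 2.22 and -0.11 in the AF. In the AF of ank 48 this deviation was 1.42, and the immediate early mean was 10.7. The immediate early genes were not alike in the AF of ank 41. Fosb (16.88) and Atf3 (13.03) were the highest of the 10 AF arrays, whereas Fos (11.63) and Junb (7.60) were below WT 59 (12.48 and 8.08). The part of immediate early genes in the pattern of ank 41 was not tested.

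**Figure D2:**
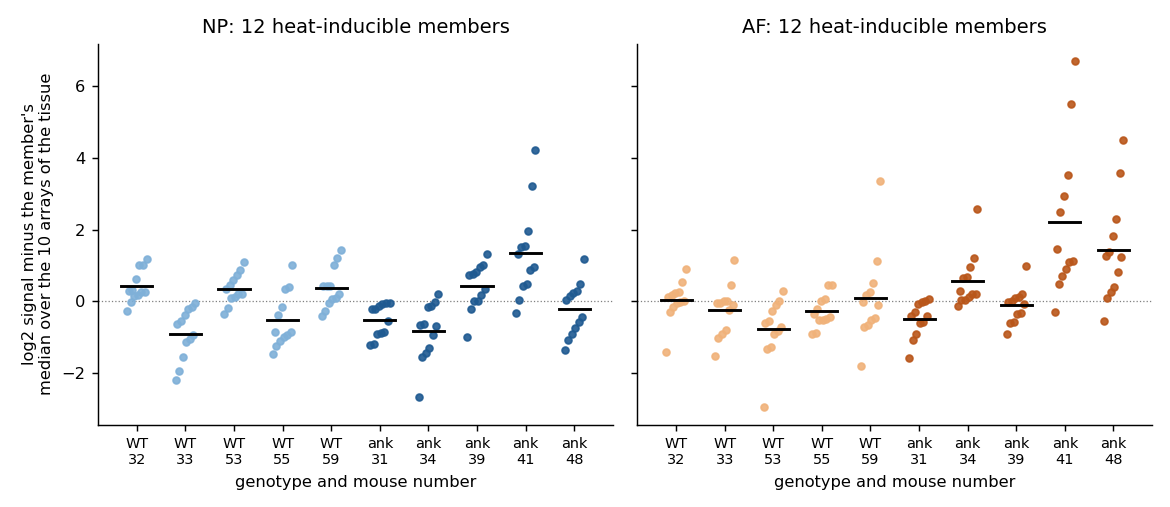
The log2 signal of each of the 12 heat-inducible members minus that member's median over the 10 arrays of the tissue (y axis), for each mouse (x axis), in the NP (left) and the AF (right); points are members and bars their mean. The mean of ank 41 is the highest in both tissues (1.35 and 2.22), and that of ank 48 is next in the AF (1.42) but not in the NP (-0.23).

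Some of these genes were high in the AF arrays with high NP marker genes. The mean signal of 7 NP markers in the AF arrays was 14.2 in ank 41, 14.5 in ank 48, 13.5 in ank 34 and 13.2 in WT 59, and at most 12.3 in the other 6. These 4 arrays also had the 4 highest signals of Cryab, of Hspb1 and of Dnajb4. Other heat-inducible genes did not have this order. In the AF Bag3 was lowest in WT 59 (5.20), Hspd1 highest in WT 33 (8.27) and Hspe1 highest in WT 32 (7.53), and Hsp90aa1 and Dnajb1 were lower in WT 59 than in WT 32. The range of the NP marker mean was 8.59 to 13.2 in the AF of WT mice and 10.4 to 14.5 in that of ank mice, and its part in the AF differences of these members was not tested.

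**Figure D3:**
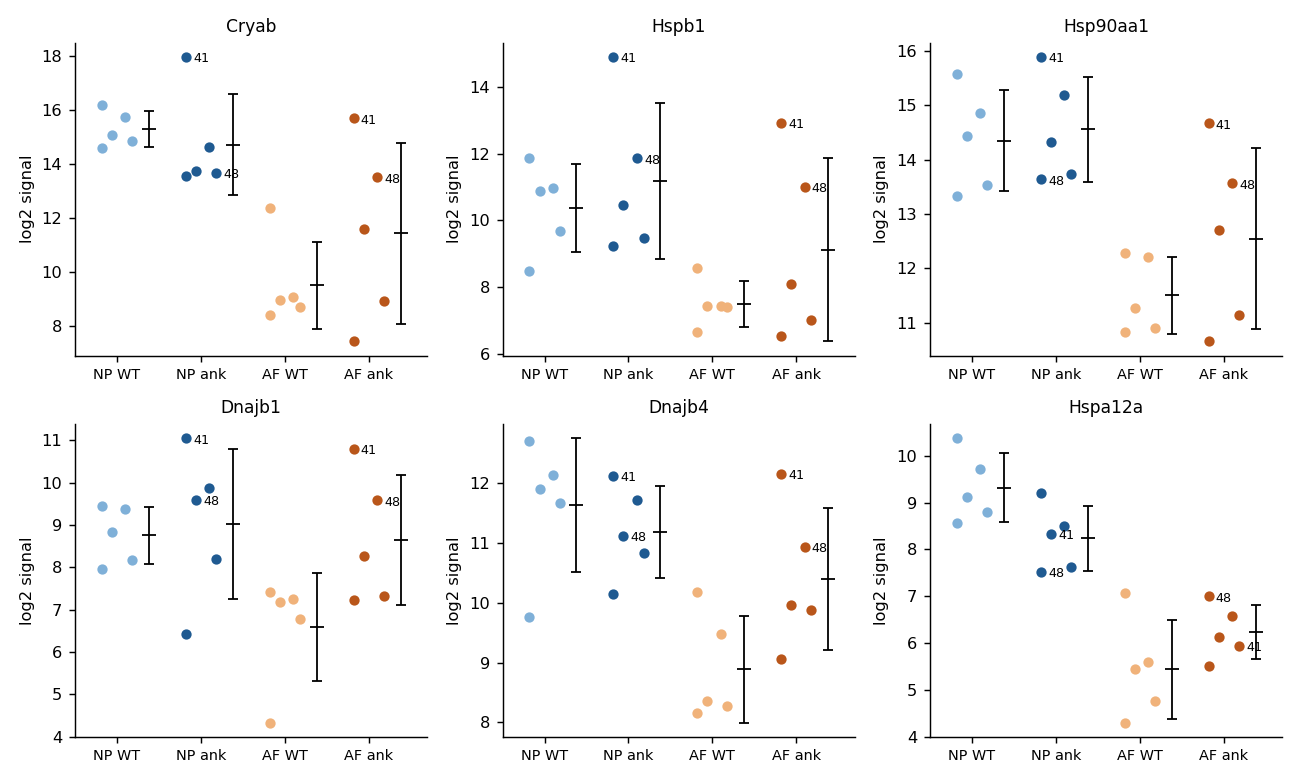
Log2 signals (y axis) of 6 members in the 4 groups (x axis), 1 point per array, with the group mean and SD (n = 5) as a bar; ank 41 and ank 48 are numbered. The signal of ank 41 is the highest of its tissue for Cryab, Hspb1, Hsp90aa1 and Dnajb1 in both tissues, and Hspa12a has no such array.

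Between the tissues of WT mice, members were called lower in the AF about as often as other genes. After joint quantile normalization of the 20 arrays, 7 of the 34 members tested differed, 6 lower and 1 higher in the AF, beside 17.7% and 8.73% of 5454 genes (26.5% in either direction). Of the 6 lower, Hspa12a, Hspb8, Hspa2 and Dnajb12 were above background in at most 1 of 5 AF arrays and so entered the test through the NP, where they are high. With 8 of 10 arrays required to be above background, Cryab and Dnajb9 were called. The median difference was -0.66 over the members and -0.27 over all genes. The count depended on the scaling: with values as deposited 27 members were called, all lower in the AF, beside 68.6% of all genes, and after centring each array on its median 22, all lower, beside 53.5%, where the calls among all genes were higher in the AF in 2.38% and 4.66% of cases against 476 of 1443 after quantile normalization. In the ank mice 0 of 34 members differed by limma (4.02% of 5149 genes called, and 9 members with an unadjusted p under 0.05, beside 22.8% of all genes), with a median of -0.36 beside -0.11.

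Because 0 members were called in both genotypes, the 7 called in WT mice are named here after their values were seen. Cryab had the largest difference. Its jointly normalized signals in WT mice were 14.58, 14.01, 13.60, 14.51 and 15.20 in the NP and 9.47, 9.10, 9.71, 10.14 and 13.34 in the AF, with no overlap. In 5 of the 34 members every AF array lay below every NP array, beside 12.3% of all genes. The AF minus NP difference was -4.03 (SE 0.68, adjusted p 0.00153) in WT mice and -2.38 (SE 1.21, adjusted p 0.265) in ank mice. With the mouse as a replicate block, which pairs the 2 arrays of an animal, the value of ank mice had an adjusted p of 0.0487.

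Hspa12a was above background in all 5 NP and in 0 AF arrays of WT mice, so its AF level is only bounded. The NP signal was at least 1.58-fold higher, a bound that was not tested. Its measured joint means were 8.68 in the NP and 5.61 in the AF. The limma adjusted p of 0.00158 belongs to the measured difference (-3.08, SE 0.52), which rests on AF values below background. Hspb8, a small heat shock partner of Bag3, was -1.90 (SE 0.39, adjusted p 0.00467) in WT mice, with joint means of 8.85 and 6.95 and 1 of 5 AF arrays above background, and -1.35 (SE 0.48, adjusted p 0.123) in ank mice. Dnajb9 was -1.88 (SE 0.50, adjusted p 0.0164) and -1.01 (SE 0.30, adjusted p 0.0776), without overlap in either genotype. In ank mice 4 members (Dnajb9, Hspa2, Hspd1 and Dnajc11) did not overlap, all of them lower in the AF. Beside these, 247 of all 5149 genes were lower without overlap (8.41% in either direction). Dnajc11 was above background in 5 of 5 NP and in 1 of 5 AF arrays of ank mice. It thus entered the test through the NP, and its lack of overlap rests on AF values mostly below background.

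Hspa2, an HSP70 best known from the testis, was -1.73 (SE 0.49, adjusted p 0.0202) in WT mice, with 1 of 5 AF arrays above background, and -1.19 (SE 0.37, adjusted p 0.0874) in ank mice. Dnajb12 was -1.26 (SE 0.36, adjusted p 0.0217) in WT mice, with 1 of 5 AF arrays above background, and was not tested in ank mice. Hspa4 was the member called higher in the AF, by 1.09 (SE 0.38, adjusted p 0.0484) in WT mice and by 1.02 (SE 0.38, adjusted p 0.136) in ank mice. With the replicate block the adjusted p in WT mice was 0.0574. The sign depended on the scaling, since with values as deposited Hspa4 was -0.49 and after centring -0.15 in WT mice.

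Hspa5 and Hsp90b1, chaperones of the endoplasmic reticulum, were nominally higher in the AF after joint normalization. Hspa5 (BiP) was 1.55 (SE 0.55, adjusted p 0.0517) and 1.08 (SE 0.56, adjusted p 0.269) in WT and ank mice, and Hsp90b1 (GRP94) was 1.20 (SE 0.44, adjusted p 0.0601) and 0.98 (SE 0.43, adjusted p 0.197). Neither was called in either genotype in this fit. In WT mice Hspa5 was called higher with the mouse as a replicate block and without WT 53, and Hsp90b1 without WT 33. With values as deposited Hsp90b1 was called lower in the AF of WT mice, and the means of Hspa5 were 15.43 in the NP and 15.12 in the AF. Of the 7 heat-inducible genes tested in WT mice all 7 were nominally lower in the AF, beside 3283 of all 5454 genes. Their median was -1.02, and 1 of them was called (Cryab). Hspb1, Dnajb1, Hspd1 and Bag3 were above background in 1 of 5 AF arrays of WT mice, so they entered the test through the NP. With the replicate block Hspb1 was called lower too.

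**Figure D4:**
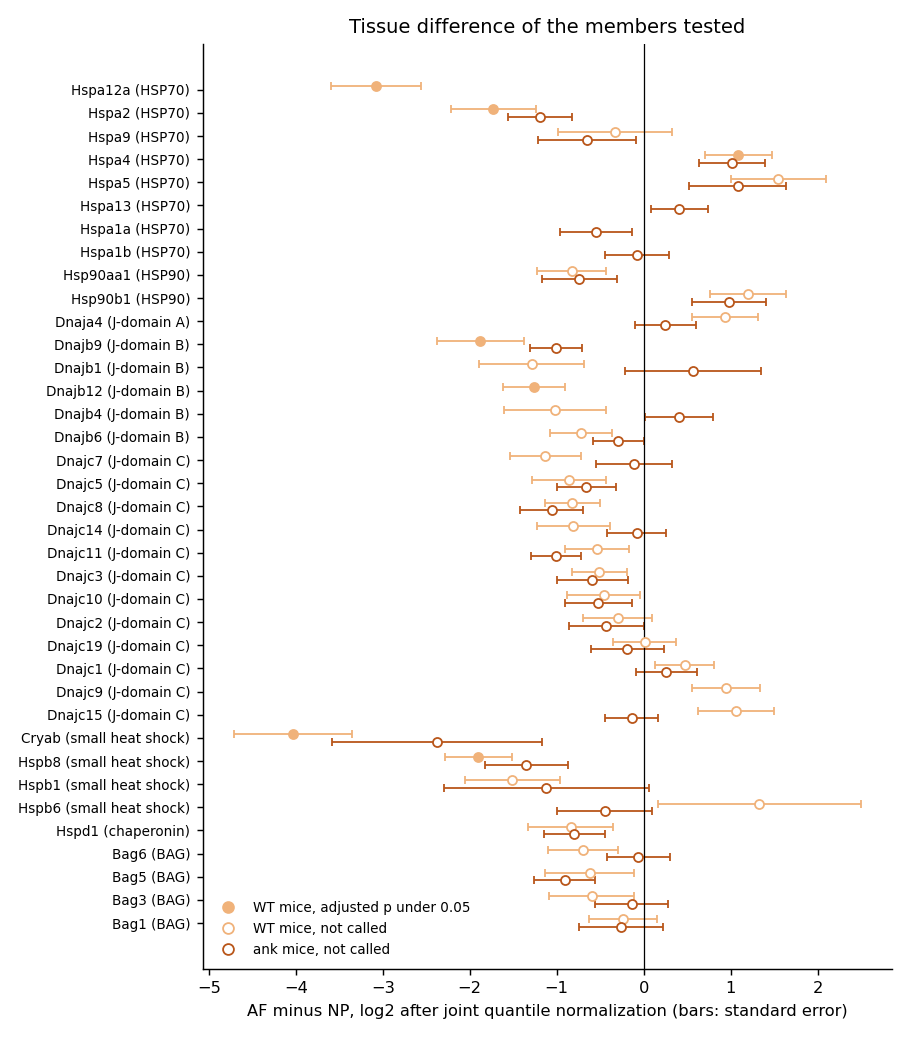
The AF minus NP difference (log2 after joint quantile normalization, x axis) of each member tested, ordered by class, in WT and ank mice, with the standard error as a bar; filled points have an adjusted p under 0.05, and a member tested in 1 genotype has 1 point. The 7 filled points are all of WT mice, from Cryab at -4.03 to Hspa4 at 1.09.

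Hspb6 and Hspb7, small heat shock genes of heart and skeletal muscle, were high in 1 AF array, a pattern also chosen after its values were seen. Hspb6 read 7.63, 15.43, 7.57, 6.77 and 8.06 in the AF of WT 32, 33, 53, 55 and 59 and 6.58 to 9.33 in the AF of ank mice. Hspb7 read 7.82, 15.41, 6.75, 6.43 and 7.32 in the same WT arrays and 5.98 to 8.98 in ank. In the NP array of WT 33 Hspb6 read 8.72, within the range of the other NP arrays, and Hspb7 read 6.86, the highest of the NP arrays but below background. The same AF array had 11 of 12 skeletal muscle genes above background, with a mean of 12.2 against 5.49 to 7.47 in the other AF arrays, and its 3 adipocyte genes averaged 10.6 against 5.15 to 7.38. It also stood apart for osteoblast genes (13.9 against 6.26 to 8.91), endothelial genes (9.66 against 4.76 to 5.78) and macrophage genes (9.61 against 5.64 to 6.76). The part of these genes in the signals of Hspb6 and Hspb7 was not tested. Of the muscle genes Acta1, skeletal actin, read 18.23 there. The ank minus WT difference of Hspb6 in the AF was -1.41 (SE 1.40, adjusted p 0.947) and turned to 0.18 without WT 33, and its AF minus NP difference in WT mice turned from 1.33 to -0.12. Hspb2, also a muscle gene, was above background in 0 AF arrays and Hspb3 in 0 of all 20.

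**Figure D5:**
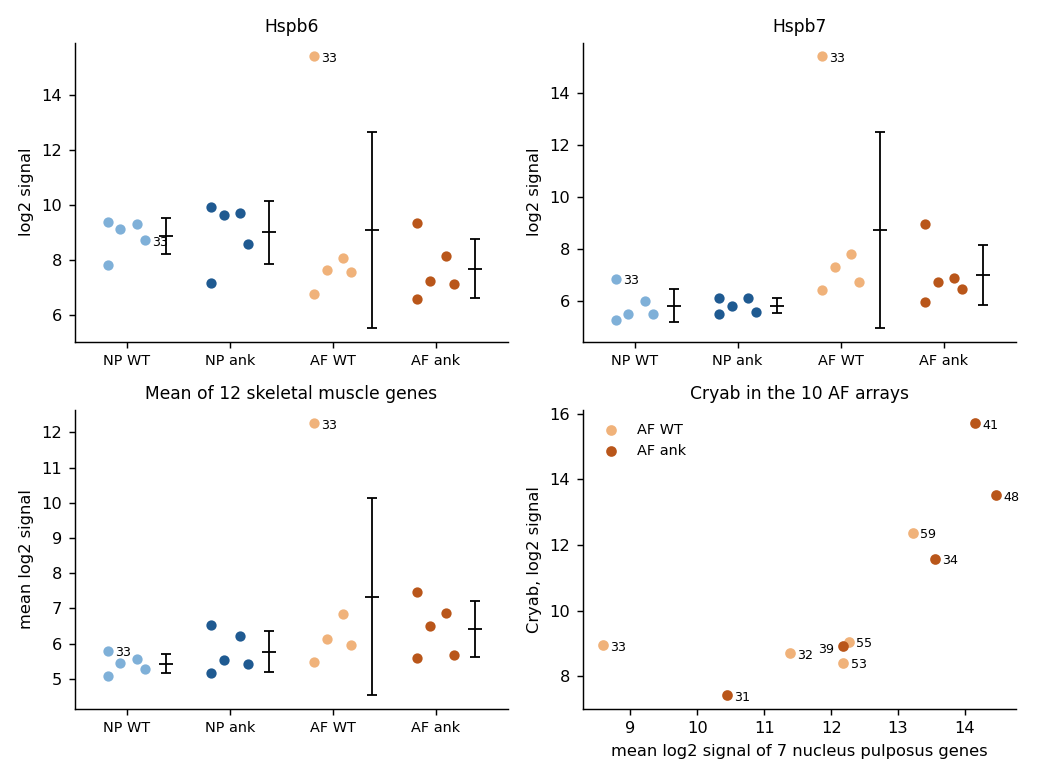
Log2 signals of Hspb6 and Hspb7 and the mean of 12 skeletal muscle genes in the 4 groups, 1 point per array with group mean and SD (n = 5), and Cryab (y axis) against the mean of 7 NP marker genes (x axis) in the 10 AF arrays, numbered by mouse. The AF array of WT 33 stands apart in the first 3 panels (15.43, 15.41 and 12.2), and the 4 arrays with the highest NP marker mean have the highest Cryab signal.

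Other genes of the folding machinery were taken from textbook lists. Of the heat shock factors and their binding protein, 3 of the 5 in the table were tested in the NP and 0 in the AF, and Hsf1 was not analysed here. Hsf2, Hsf4 and Hsbp1 differed by -0.281, -0.232 and -0.29 in the NP, none past the cut-offs. Of the HSP70 and HSP90 partners 15 were tested in the NP and 9 in the AF, and 0 passed after adjustment. Fkbp5, an HSP90 partner induced by glucocorticoids, was past the labels' cut-offs in the NP, 0.833 higher in ank (unadjusted p 0.0481, adjusted p 0.973). It was 1 of the 15 tested there, and 0.505% of all genes were past them as higher.

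The cytosolic chaperonin CCT, which folds actin and tubulin, had 6 genes tested in the NP and 5 in the AF. In the AF all 5 were nominally higher in ank, beside 72.4% of all genes (median 0.57 beside 0.28 for all genes). Cct4, 1 of the 5, was past the labels' cut-offs in the limma fit (1.07, unadjusted p 0.0289, adjusted p 0.947). Of all genes 3.56% were past them as higher in the AF. Between the tissues of WT mice 4 of 6 CCT genes were lower in the AF after adjustment, beside 17.7% of all genes, and 3 of the 6 secretory chaperones tested were higher, beside 8.73%. In ank mice these counts were 0 of 6 and 1 of 6, where 4.02% of all genes were called in either direction. CCT genes could enter these tests through the NP, where they are high. Tcp1, Cct3 and Cct4 were above background in 9, 10 and 10 NP arrays and in 3, 5 and 7 AF arrays. Their deposited means in the AF of WT mice were 6.65, 7.34 and 7.49, beside a median background of 7.58. Calls of higher genes depend on the joint normalization, since with values as deposited 2.38% of the calls in WT mice were higher in the AF.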

How the data were processed

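RNA of 20 tissue samples was hybridised to Clariom S arrays, 1 NP and 1 AF array from each of 10 mice. The authors converted the scans by sst-rma, which corrects background, quantile-normalizes the arrays and summarises probes, in the Transcriptome Analysis Console and deposited log2 values. The methods describe RNA of moderate integrity. Array medians differ between tissues, so values were tested within a tissue as deposited and between tissues after joint quantile normalization. Arrays have no read depth, and their number and signal over background limit the precision.

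Of 28846 probe sets, 19572 had 1 gene symbol in the platform annotation, 0 had several, and the remaining ones had none, which gave 19505 genes. Genes above the 95th percentile of 1426 silent receptor genes in at least 5 of the 10 arrays compared were tested with limma 3.58.1 in R 4.3.3 and Benjamini-Hochberg adjustment over all of them at 0.05. The labels' cut-offs, a fold of 1.75 and an unadjusted p of 0.05, were counted on the same fits. The script was tested on simulated data. Figures were drawn with matplotlib 3.10.9.

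The members and lists were chosen with earlier results of these data known. Every member could be named, and array-by-array values were given for the 4 members with the smallest unadjusted p in each tissue, members past the labels' cut-offs, a textbook list of heat shock genes, and, between tissues, members called in both genotypes; exceptions are named where they occur. Arrays of a mouse pair by design: deviations from group means correlated with a median of 0.157 within mice and -0.042 between mice, over 3903 genes. No 2 arrays were identical, and arrays of a group correlated by 0.749 to 0.975. Alternatives were other scalings, filters, covariates, the spike-in set, the methods' t-test and leaving out each mouse. The methods name that t-test for comparisons of groups in general, and name no test for the arrays.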

Additional observations from a re-analysis of the deposited data

Results flagged for a closer look

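In a group of 5 arrays, a value was set apart when its gap to the nearest other value exceeded the critical share of the group's range. Of 89 groups examined for 24 named members 7 had such a value. The critical share is one that chance exceeds in about 1 of 20 groups, but the 7 cannot be set against that rate. Some members, Hspb6 and Hspb7 among them, were named after their values were seen, and the groups share arrays. Cryab was 17.97 in the NP of ank replicate 41, against 13.56 to 14.64 in the other ank arrays, and 12.37 in the AF of WT replicate 59, against 8.41 to 9.06. Hspb6 was 15.43 and Hspb7 15.41 in the AF of WT replicate 33, against 6.77 to 8.06 and 6.43 to 7.82. Dnajb1 was 4.33 in the AF of WT replicate 53, against 6.77 to 7.42, an array with a control AUC of 0.607. Hsph1 was 5.53 in the NP of ank replicate 48, against 6.84 to 7.23, and Bag3 was 5.2 in the AF of WT replicate 59, against 6.65 to 7.21; these last 3 values lie below the background of their arrays.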

How the results depend on the processing

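No setting gave a member an adjusted p under 0.05 for ank against WT in either tissue. In the NP the count of members past the labels' cut-offs moved from 0 higher to 1 with control AUC as a covariate and to 2 within the low spike-in set, and from 1 lower to 2 within the high set and 0 within the low set; leaving out 1 array gave 0 to 1 higher and 0 to 2 lower. In the AF the 2 higher members became 0 after quantile normalization, 4 without a filter, 1 with sex, control AUC or the spike-in set in the fit, 1 by the methods' t-test, 0 within the high and 6 within the low spike-in set (where 930 of all 4078 genes were higher, against 145), 7 without WT 33 and ank 31 (992 of all genes), and 0 to 7 with 1 array left out (603 of all genes without ank 31, where there were 7); 1 member was lower with control AUC and within the high set, and 0 to 1 with 1 array left out. The AF median was -0.52 within the high set.

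In WT mice the 7 members called between tissues became 27 with values as deposited (median -1.85; 68.6% of all genes called), 22 after centring (median -1.51; 53.5%), 11 of 75 without a filter (14.4%), 2 when 8 arrays had to be above background, and 3 (without replicate 32) to 10 (without replicate 33) with 1 mouse left out; without replicate 59 there were 4. With the mouse as a replicate block there were 8 in WT mice, 6 of them shared, and 1 in ank mice. In ank mice the 0 became 19 as deposited (median -1.38; 47.7% of all genes called), 5 after centring (median -0.94; 9.01%) and 6 of 75 without a filter (5.92%). The block could not apply within a tissue, where mice of the 2 genotypes share no number.

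Signs of some small differences turned. In the NP Hspd1 was 0.02 after quantile normalization and Hspa5 0.01 with control AUC. Within the high spike-in set Hspa1b was -0.15, Hspb1 -0.39, Dnajb1 -0.76, Hsp90aa1 -0.17 and Bag3 -0.13, and within the low set Cryab was 0.18 and Hspd1 0.14. Leaving out 1 array gave -0.51 to 0.24 for Hspa5, -0.13 to 0.51 for Hsp90aa1, -0.26 to 0.47 for Bag3, -0.47 to 0.15 for Hspd1, -0.12 to 1.30 for Hspb1 and -0.23 to 0.93 for Dnajb1. In the AF Hspa5 was 0.01 after centring, 1.42 within the low set, 0.58 without WT 33 and ank 31, and -0.82 to 0.54 with 1 array left out. Hsp90aa1 was -0.57 within the high set. Hspb6 was 0.43 within the low set, 0.45 without both arrays and -1.99 to 0.18 with 1 left out. Between tissues Hspa4 was -0.49 as deposited and -0.15 after centring in WT mice and -0.07 as deposited in ank mice, and Hspb6 in WT mice was -0.12 to 1.77 with 1 mouse left out. The causes were not tested.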
